A study of Homo sapiens with 2 samples.

Results

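Ribosome profiling libraries of HEK293 cells were examined for 10 human genes whose products move new proteins into and across the membrane of the endoplasmic reticulum (ER). The genes were taken by Ensembl gene ID from a list that pairs each ID with its symbol: SEC61A1, SEC61B, SEC62, SEC63, SSR1, SSR2, SSR3, SSR4, TRAM1 and SPCS2. All 10 IDs occur in the deposited table, among 57820 IDs in all. The rule that lists them uses no measured value, but the genes were chosen with earlier results of these data known. HEK293 is an established human embryonic kidney cell line. Both libraries belong to 1 group: cells that received DMSO as vehicle during 12 h. Replicate 2 carries the batch number 2 in the labels and replicate 1 the batch number 1. Replicate 2 held 611266 counts and replicate 1 held 865838 counts of ribosome-protected fragments of 27 to 29 nt. Minocycline-treated cells, matched RNA-seq and the place of fragments along each mRNA are not analysed here, so the values are footprint counts per gene and not translational efficiencies. Markers of the cell line could not be checked, because IDs other than those of the 10 genes carry no names in the tables used here.

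In ribosome profiling, an RNase trims mRNA outside bound ribosomes, and the protected fragments record where ribosomes were translating. The SEC61 channel is the pore through which most secretory and membrane proteins enter the ER, usually while they are still being made by a ribosome docked on it. The translocon-associated protein (TRAP) complex, built from the products of SSR1, SSR2, SSR3 and SSR4, sits beside the channel and helps substrates with weak signal sequences. SEC62 and SEC63 assist precursors that enter after synthesis or gate the channel poorly, TRAM1 contacts nascent chains in the membrane, and the signal peptidase complex removes signal sequences. The unfolded protein response, through the transcription factors XBP1 and ATF6, is known to raise transcription of many genes of this machinery.

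The genes lie on 7 chromosomes: SEC61A1, SEC62 and SSR3 on chromosome 3, SSR1 and SEC63 on chromosome 6, SSR2 on chromosome 1, SEC61B on chromosome 9, SPCS2 on chromosome 11 and SSR4 on chromosome X, with TRAM1 on another autosome. RefSeq promoter windows on GRCh38.p14, each of 250 bases before and 50 after a transcription start, were searched for 9 of the 10 genes. TRAM1 was left out of the search by its chromosome, and the shares over all windows were not limited in this way. The 9 genes have 13 windows in all because some genes have several starts. The ER stress element bound by ATF6, CCAAT and CCACG with 9 bases of any kind between them, was searched on both strands and matched 0 of the 13 windows, against 0.0769% of all 35116 windows. The core of the unfolded protein response element bound by XBP1, TGACGTG, was added to the search later, together with ER stress element II and the letters CCACG alone, and is shown because of its matches. On either strand it occurred in 1 window each of SEC61A1, SSR3, SEC62 and SSR4, 4 of the 13 windows, against 1.97% of all windows. ER stress element II matched 0 of the 13 windows, against 0.0541% of all windows, and CCACG alone matched 11 of the 13, against 38.1%. By gene the matches to the XBP1 core were 4 of 9, against 2.40% of all symbols in the table. The 4 stretches share the core on either strand, shown in capitals, and the letters around it differ. They are read 5′ to 3′ on the strand of the gene. Promoter letters had no part in choosing the 10 genes.
SEC61A1, chr3:128052425-128052453, plus strand: cgggctagcacTGACGTGtctctcggcgg
SEC62, chr3:169966780-169966808, plus strand: cctcctcgctcCACGTCAgagggaaccgg
SSR3, chr3:156554148-156554176, minus strand: ctgataacagcCACGTCAgcaaggaaact
SSR4, chrX:153794529-153794557, plus strand: cagggaggggcCACGTCAgtgctgccaga
In SEC61A1 the match lies across the downstream of its 2 listed starts, from position -1 to 6, and in SEC62 it lies from -16 to -10. In SSR3 and SSR4 it lies before an alternative start, from -40 to -34 and from -128 to -122. In SSR3, SEC62 and SSR4 the capitals read as the reverse complement of the core, and with the base before them they include the letters CCACG. A match is a run of letters and not a bound site, and these footprint counts do not measure transcription.

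The TATA box TATAAA matched 0 of the 13 windows, against 11.5% of all windows, and the CCAAT box, searched on both strands, matched 7 of the 13, against 34.6%. The CCAAT letters also form the first part of the ER stress element. The 120 bases before the start are shown for SSR2, which collected the most footprints of the 10 genes, and for SPCS2, which collected the fewest, with the CCAAT box in capitals on whichever strand it occurs.
SSR2, chr1:156020952-156021071, minus strand: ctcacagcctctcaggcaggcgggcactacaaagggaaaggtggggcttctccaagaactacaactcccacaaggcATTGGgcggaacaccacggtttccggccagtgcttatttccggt
SPCS2, chr11:74949146-74949265, plus strand: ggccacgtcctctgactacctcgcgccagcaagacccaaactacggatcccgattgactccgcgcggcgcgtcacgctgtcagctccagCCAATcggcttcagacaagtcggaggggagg
Both genes hold the box within the last 50 bases before the start, at -44 to -40 in SSR2 and at -31 to -27 in SPCS2. Whether the box relates to footprint counts was not tested.

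All 10 genes had footprints in both libraries. Together they held 2167 counts in replicate 2 and 3416 in replicate 1, which is 0.355% of all counts in replicate 2 (95% exact Clopper-Pearson interval 0.340 to 0.370) and 0.395% in replicate 1 (0.381 to 0.408). The mean share was 0.375% ± 0.0283 (SD, n = 2). These intervals cover counting error only, and they treat PCR copies of 1 fragment as if each were a separate molecule. The 2 highest IDs of the table took 23.2% of replicate 2 and 17.6% of replicate 1. With those IDs left out of the totals, the 10 genes held 0.462% of replicate 2 and 0.479% of replicate 1, a mean of 0.470% ± 0.0118 (SD, n = 2). The summed counts had a log2 ratio of replicate 2 over replicate 1 of -0.15 by library size (95% exact binomial interval -0.23 to -0.08) and -0.04 after TMM scaling (-0.12 to 0.03), which sets library totals so that most IDs do not differ. The interval excluded no difference on the first scale and included it on the second.

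Coding lengths are not used here, and a longer coding sequence holds more ribosomes at the same rate of initiation. Values in CPM, the counts of a gene per 1000000 counts over all IDs of its library, are therefore compared between libraries for 1 gene. The order of the genes below is an order of footprint counts and not of synthesis rates. That order was the same in both libraries: SSR2, SSR1, SEC61A1, SEC62, SSR3, TRAM1, SSR4, SEC63, SEC61B and SPCS2, from most to fewest. Some of its steps are small. SSR3 and TRAM1 had 182 and 155 counts in replicate 2 and 273 and 262 in replicate 1. In replicate 2 the interval of the SSR1 to SSR2 ratio included 1 (0.827 to 1.06).

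**Figure D1:**
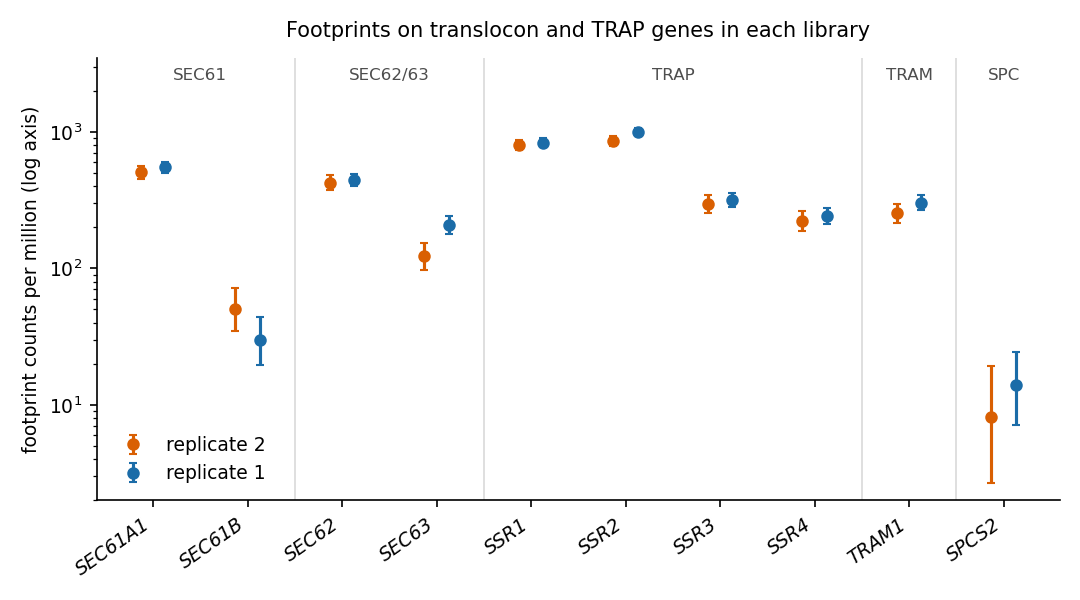
Footprint counts in CPM (log axis) of the 10 genes in replicate 2 (orange) and replicate 1 (blue), grouped by complex (SPC, signal peptidase complex), with 95% exact Clopper-Pearson intervals for counting error. The pairs of points of the 4 TRAP genes, SEC61A1, SEC62 and TRAM1 lie close together, SEC63 is lower in replicate 2, and SEC61B and SPCS2 lie well under the others.

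For the channel itself, SEC61A1 (ENSG00000058262.5), which encodes the pore-forming subunit with its many membrane spans, had 309 counts in replicate 2 and 475 in replicate 1. In CPM these were 506 and 549, a mean of 527 ± 30.5 (SD, n = 2), and the ID ranked 230 in the table by mean CPM. SEC61B (ENSG00000106803.5), which encodes a small subunit anchored by its tail, had 31 counts in replicate 2 and 26 in replicate 1, or 50.7 and 30.0 CPM. SEC61B was the single gene of the 10 with a higher CPM in replicate 2, but that count depends on the scale. By library size, as in CPM, the median log2 ratio of the 2241 IDs with at least 100 summed counts was -0.18. After TMM scaling 4 of the 10 genes had a log2 ratio above 0. The SEC61B mean of 40.4 ± 14.6 CPM (SD, n = 2) rests on 57 counts in all, so its level is known far less precisely than that of SEC61A1.

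SEC62 (ENSG00000008952.12), which encodes a membrane protein of the post-translational route that also serves as a receptor for turnover of the ER, had 260 counts in replicate 2 and 387 in replicate 1. Its CPM of 425 and 447 gave a mean of 436 ± 15.3 (SD, n = 2). SEC63 (ENSG00000025796.9), whose product recruits the chaperone BiP to the channel through a J domain, had 75 counts in replicate 2 and 180 in replicate 1. Its CPM was 123 in replicate 2 and 208 in replicate 1, a mean of 165 ± 60.2 (SD, n = 2).

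The 4 TRAP genes supplied most of the footprints of the set. They took 61.5% of the counts of the 10 genes in replicate 2 (95% exact Clopper-Pearson interval 59.4 to 63.5) and 60.7% in replicate 1 (59.1 to 62.4). SSR2 (ENSG00000163479.9), which encodes TRAP beta, had 523 counts in replicate 2 and 868 in replicate 1, or 856 and 1002.5 CPM, and ranked 99. SSR1 (ENSG00000124783.8), which encodes TRAP alpha, had 490 counts in replicate 2 and 722.5 in replicate 1, or 802 and 834 CPM, and ranked 129. These genes had the highest counts of the 10 in each library.

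SSR3 (ENSG00000114850.2), which encodes TRAP gamma, had 182 counts in replicate 2 and 273 in replicate 1, or 298 and 315 CPM. SSR4 (ENSG00000180879.9), which encodes TRAP delta, had 137 counts in replicate 2 and 210.5 in replicate 1, or 224 and 243 CPM. The mean CPM was 929 ± 104 for SSR2, 818 ± 23.2 for SSR1, 307 ± 12.4 for SSR3 and 234 ± 13.4 for SSR4 (SD, n = 2 for each). The counts of SSR1 and SSR4 in replicate 1 end in 0.5, the only non-whole values among the 10 genes. RefSeq names 2 pseudogenes after SSR1 and 1 after SSR4, and on GRCh38.p14 the SSR4 locus overlaps IDH3G. In all, 6 of the 10 genes have an overlapping gene, and for SEC61A1 these include the protein-coding RUVBL1. Whether shared fragments moved any of these counts was not tested.

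TRAM1 (ENSG00000067167.3) had 155 counts in replicate 2 and 262 in replicate 1, or 254 and 303 CPM, a mean of 278 ± 34.7 (SD, n = 2). SPCS2 (ENSG00000118363.7), which encodes a subunit of the signal peptidase complex without catalytic activity, had 5 counts in replicate 2 and 12 in replicate 1, or 8.18 and 13.9 CPM. Its share of all counts was 0.000818% in replicate 2 (95% exact Clopper-Pearson interval 0.000266 to 0.00191) and 0.00139% in replicate 1 (0.000716 to 0.00242), and the ID ranked 7558. RefSeq names 4 pseudogenes after SPCS2, the most of any of the 10 genes, and 6 of the 10 have none. The part of such copies in its low count was not tested.

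**Figure D2:**
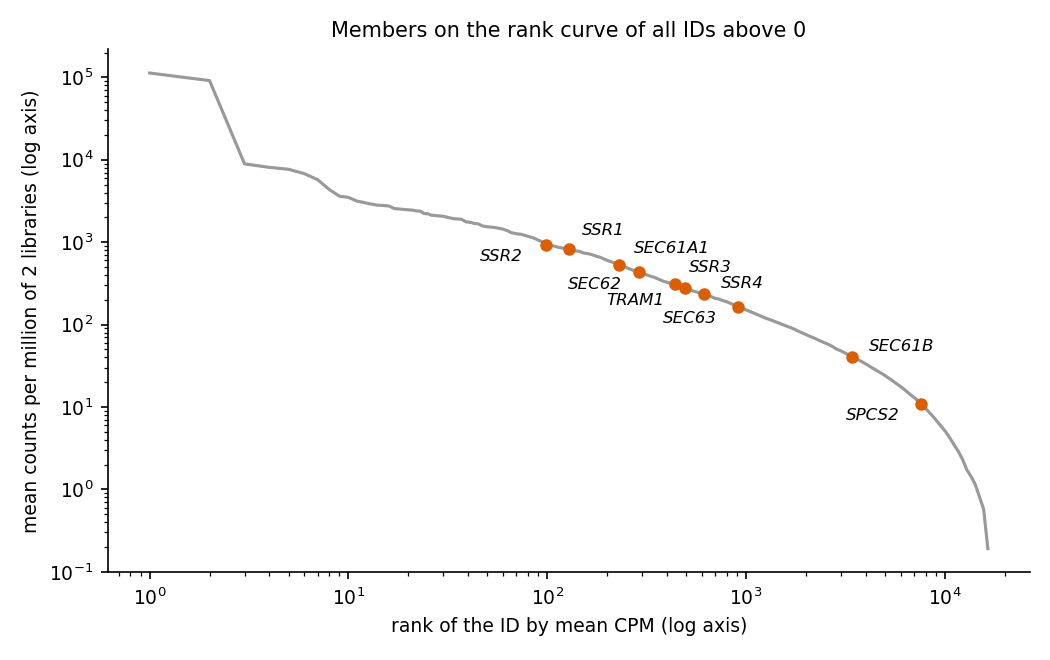
Mean CPM of the 2 libraries (log axis) against rank by mean CPM (log axis) for all IDs above 0 (grey line), with the 10 genes as orange points. SSR2 at rank 99 to SEC63 at rank 910 form a run in the upper part of the curve, and SEC61B and SPCS2 stand apart at ranks 3430 and 7558.

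Of the 10 genes, 8 had a summed count of at least 100 and all of these ranked 910 or higher by mean CPM, within the top 7.42% of the 12262 IDs above 0 in both libraries. The other members, SEC61B and SPCS2, summed to 57 and 17 counts and were below the minimum set for comparing libraries. The libraries were then compared gene by gene after the same TMM scaling. A gene was called where the 95% exact binomial interval of its ratio of replicate 2 over replicate 1 lay wholly beyond 2-fold. None of the 8 genes was called (0 of 8), against 0.803% of the 2241 IDs with at least 100 summed counts. With a limit of 1.5-fold it was again 0 of 8, against 4.28% of these IDs. The background shares are so low that 0 of 8 does not set these genes apart. No p-value was computed: 1 group has no contrast, and 2 libraries allow no permutation p under 0.05.

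Apart from SEC63 and TRAM1, the log2 ratio of replicate 2 over replicate 1 was small: 0.05 for SSR1 (95% interval -0.12 to 0.22), 0.04 for SEC62 (-0.19 to 0.27), 0.03 for SSR3 (-0.25 to 0.30), -0.0044 for SSR4 (-0.33 to 0.31), -0.0085 for SEC61A1 (-0.22 to 0.20) and -0.12 for SSR2 (-0.28 to 0.04). TRAM1 had -0.15 (-0.44 to 0.15). Each of these intervals includes no difference, and none reaches 1.5-fold in either direction by its point value. By library size in place of TMM, the median log2 ratio of all 2241 IDs moved to -0.18, from -0.07, and the ratios of SSR1, SEC62 and SSR3 became negative, so no direction is given for these genes. By library size the interval of SSR2, with a log2 ratio of -0.23 (-0.39 to -0.07), excluded no difference.

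SEC63 was the gene of the 8 that differed most between the libraries. Its log2 ratio was -0.65 (95% interval -1.06 to -0.25), a ratio of 0.637, and it was -0.76 (-1.17 to -0.36) by library size. An interval below no difference was not rare: it occurred for 1 of the 8 genes and for 22.3% of the 2241 IDs. Of those IDs, 226 (10.1%) had a ratio as low as that of SEC63 or lower. RefSeq names 2 pseudogenes after SEC63, and on GRCh38.p14 the SEC63 locus overlaps the pseudogenes RNU6-437P and RPL23AP50. The part of any of these in the difference was not tested. With 1 library in each batch, batch and replicate cannot be told apart.

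The median log2 ratio was -0.0064 over the 8 genes and -0.07 over all 2241 IDs. The median absolute log2 ratio was 0.05 over the 8 genes and 0.30 over all IDs, and 7 of the 8 genes, or 87.5%, lay within 1.5-fold, as did 79.6% of all IDs. The 8 genes had a median summed count of 551, against 202 for all 2241 IDs, and the part of counting error in the closer ratios was not tested. SEC61B and SPCS2 had log2 ratios of 0.87 (0.07 to 1.68) and -0.65 (-2.51 to 0.96), and by library size the interval of SEC61B included no difference (-0.04 to 1.57).

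**Figure D3:**
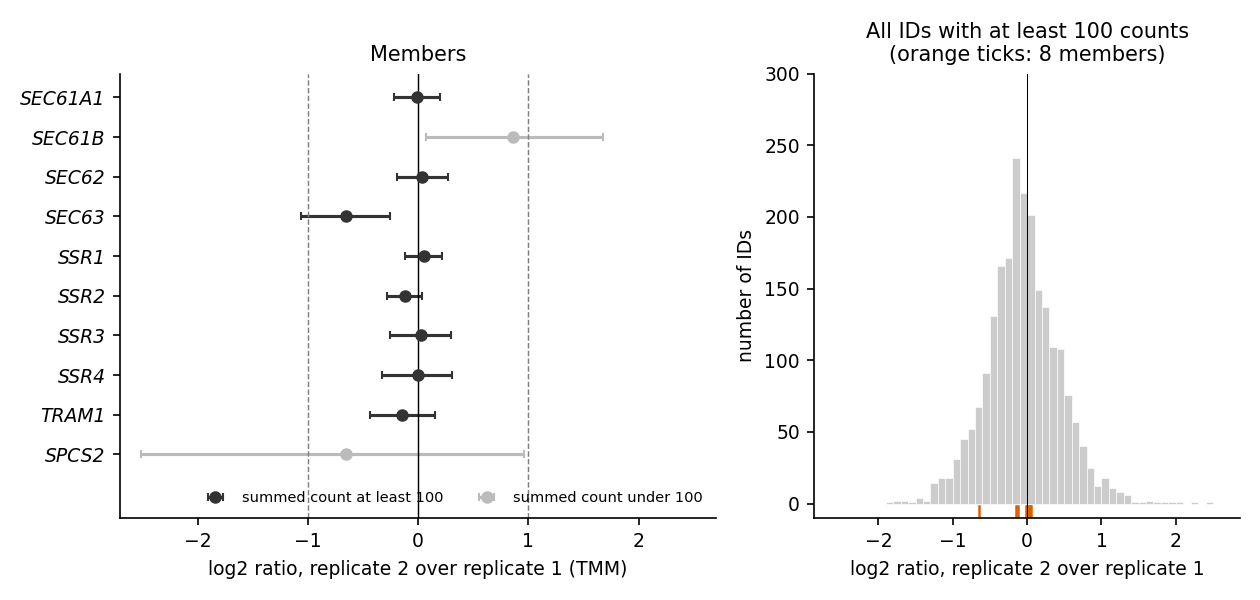
Left, log2 ratio of replicate 2 over replicate 1 after TMM scaling for each gene, with 95% exact binomial intervals, in black for genes with at least 100 summed counts and grey for those under it, and dashed lines at 2-fold. Right, number of the 2241 IDs in each bin of that ratio, with orange ticks for the 8 genes, of which SEC63 is the tick at -0.65 and the other 7 lie between -0.15 and 0.05.

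The proportion of footprints between subunits of 1 complex does not depend on how a library is scaled, and a change in that proportion between libraries does not depend on coding length. It was measured for 8 pairs. Among the 6 pairs of TRAP genes, the interval of the change included 1 for all 6. SSR1 had 0.937 footprints per footprint of SSR2 in replicate 2 (95% exact binomial interval 0.827 to 1.06) and 0.832 in replicate 1 (0.753 to 0.919), a change of 1.13 (95% conditional exact interval 0.959 to 1.32). The SSR3 to SSR4 ratio was 1.33 in replicate 2 (1.06 to 1.67) and 1.30 in replicate 1 (1.08 to 1.56), a change of 1.02 (0.760 to 1.37).

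The other TRAP pairs moved by little as well. SSR1 to SSR3 was 2.69 in replicate 2 and 2.65 in replicate 1, and SSR1 to SSR4 was 3.58 in replicate 2 and 3.43 in replicate 1. SSR2 to SSR3 was 2.87 in replicate 2 and 3.18 in replicate 1, and SSR2 to SSR4 was 3.82 in replicate 2 and 4.12 in replicate 1. Over the 6 TRAP pairs, point values of the change ran from 0.904 to 1.13. The intervals reached as low as 0.721 and as high as 1.37, and a change inside the interval of a pair is not excluded for that pair. The 6 pairs are built from 4 genes and are not independent.

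The other pairs had intervals that excluded 1. How often pairs among all IDs would do so was not measured, so neither these pairs nor the TRAP pairs are set apart. Taken singly, 22.3% of the 2241 IDs had an interval below no difference after TMM scaling. The share with an interval above it is not given here, so the share in either direction is larger. SEC62 had 3.47 footprints per footprint of SEC63 in replicate 2 (2.67 to 4.54) and 2.15 in replicate 1 (1.80 to 2.58), a change of 1.61 (1.17 to 2.24). By CPM, SEC62 had 425 in replicate 2 and 447 in replicate 1, and SEC63 had 123 and 208. The pair ratio alone does not show which gene moved. SEC61A1 had 9.97 footprints per footprint of SEC61B in replicate 2 (6.88 to 14.9) and 18.3 in replicate 1 (12.3 to 28.3), a change of 0.546 (0.305 to 0.971), which rests on the 31 and 26 counts of SEC61B. With 99% intervals the SEC62 to SEC63 pair still excluded 1 (1.06 to 2.47) and the SEC61A1 to SEC61B pair did not (0.256 to 1.15). All these intervals cover counting error only, and the spread between libraries adds to it.

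**Figure D4:**
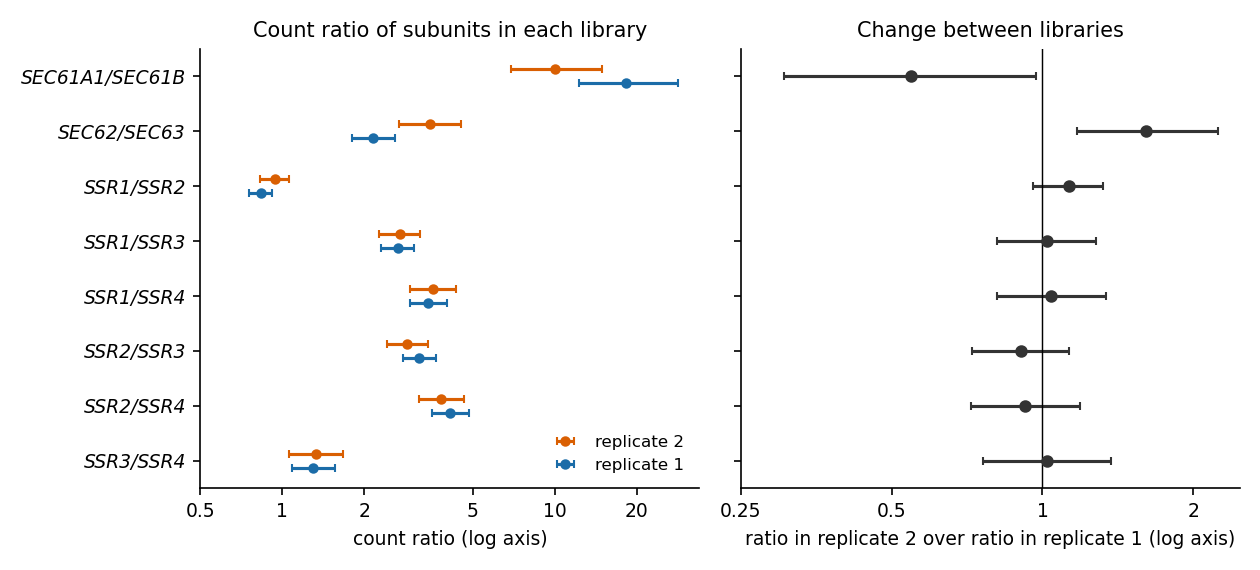
Left, ratio of footprint counts between subunits in replicate 2 (orange) and replicate 1 (blue), log axis, with 95% exact binomial intervals. Right, the ratio in replicate 2 over that in replicate 1, log axis, with 95% conditional exact intervals, where the 6 TRAP pairs lie between 0.904 and 1.13 and the SEC61 and SEC62/SEC63 pairs lie at 0.546 and 1.61.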

How the data were processed

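Per the labels' protocols, RNase I trimmed the lysates of HEK293 cells, size-exclusion columns kept the monosomes, and a gel slice of 20 to 38 nt was taken with ribosomal RNA not depleted. The authors deposited estimated counts of 27 to 29 nt fragments per Ensembl ID, unscaled and partly not whole. Per the submitters' processing notes, fragments were placed on hg19. How they were aligned, counted and assigned to strands is not stated in the labels or file header, so overlapping genes and near-identical copies may carry an uncertain split.

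The 10 genes, their symbols and the tests were chosen with earlier results of these data known. The named genes are all 10. The RefSeq gene table lists 0 Ensembl IDs, so the symbols come with the gene list, and 27 other genes of ER targeting and translocation could not be paired with IDs and are not reported. RefSeq (GRCh38.p14) gave promoter sequences and the names of neighbours and pseudogenes, matched by symbol. The coding lengths that the planned footprint densities needed are not used here, and the change in count ratio between subunits was added in their place after the data were seen.

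CPM, shares and the count ratios of subunits within a library used the deposited values. Intervals, ratios between libraries and the change in subunit ratios used values rounded to whole numbers. The TMM step of edgeR 4.0.16, run in R 4.3.3, used IDs with at least 20 summed counts. Replicate 2 held 611266 counts and replicate 1 held 865838, so 1 count is 1.64 and 1.15 CPM. The labels do not say that the libraries came from separate cultures, so the SD may be partly technical. Other scalings (library size, DESeq2 1.42.0 size factors, totals without the 2 highest IDs), limits, intervals and count minimums were tried. The ratio step was tested on simulated counts that carried counting error only. That test does not cover the added spread between real libraries. Python 3.11.15 with scipy 1.17.1, numpy 2.4.6 and pandas 2.3.3 was used.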

Additional observations from a re-analysis of the deposited data

How the results depend on the processing

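Leaving the 2 highest IDs out of the totals raised the summed share of the 10 genes to 0.470%, from 0.375%, as the smaller total requires. Leaving out 1 replicate gave 0.355% and 0.395%. No gene was called beyond the limit (0) under library-size or DESeq2 scaling, a 1.5-fold limit, 99% intervals or a minimum of 20 summed counts, with 9 genes tested under the last. Over all IDs, 18 of 2241 were called under either scaling, 96 of 2241 at 1.5-fold and 11 of 2241 with 99% intervals. With the minimum of 20 it was 85 of 6965. These shares are so low that the counts of 0 do not set the genes apart. With 99% intervals 1 pair of subunits in place of 2 changed its count ratio between libraries; the wider interval is the cause. Footprint densities per codon, density ratios and the order of genes by density were not run, since coding lengths are not used here. No paired analysis was possible because the 2 libraries analysed form 1 group. Depth limits SPCS2, with 17 counts in all, and SEC61B, with 57.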
